A study of Mus musculus with 9 samples.

Results

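The 32 genes described here encode proteins by which leukocytes hold to a vessel wall and by which the cells of the wall hold to their matrix. They are integrin subunits, the immunoglobulin-family ligands Icam1, Icam2, Vcam1 and Madcam1, the selectins Sele and Selp, and the selectin ligand Selplg. They were chosen by gene name, not by their values, from 24056 gene symbols on a mouse expression array. A gene was tested if all 3 arrays of some group had a probe of it well above background, which 30 of the 32 members and 16642 genes met. Itgad, a partner of Itgb2, and Itgb6, a partner of Itgav on epithelium, were not well above background on any array and were not tested.

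An integrin joins an alpha with a beta subunit, and the combination sets both the cell that carries it and the ligand it binds. Leukocytes first roll on selectins, which bind glycans carried by Selplg, and then stop through beta2 integrins bound to Icam1 and Icam2 or through alpha4 integrins bound to Vcam1 and Madcam1. Cells of the aortic wall use mainly beta1 and alphav integrins, whose alpha subunits choose between collagens, laminins and proteins with an RGD sequence such as fibronectin.

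All RNA came from the abdominal aorta of C57BL/6 mice that carried the uMT genotype, a germline disruption of the membrane form of the immunoglobulin M heavy chain that blocks B cell development. The 3 groups were CaCl2 plus IgG (periaortic 0.5 M CaCl2 with mouse polyclonal IgG injected intraperitoneally), CaCl2 (periaortic 0.5 M CaCl2 alone) and sham (periaortic saline). Aortas of the CaCl2 and CaCl2 plus IgG groups were taken at day 7 after CaCl2, and no day is recorded here for sham. Each group had 3 arrays. CaCl2 around the aorta is a model of abdominal aortic aneurysm by chemical injury. Age and sex are not given in the labels, and no array came from mice with B cells, so the genotype could not be checked against a wild type. The labels do not say whether the 3 samples of a group came from separate mice, so the p-values reflect variation among samples that may be technical. In whole aorta, fewer cells of a type and less RNA per cell cannot be told apart.

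Between 54.9% and 59.9% of the probes on an array were well above background, and no spot was saturated. Replicate 3 of CaCl2 plus IgG stood apart: it correlated on average at 0.959 with replicates 1 and 2 of that group, where the same average was 0.973 to 0.987 for the remaining 8 arrays. Replicate 3 of sham was the only array on a slide and scan of its own. On the slide that held the other 8 arrays, all 3 CaCl2 arrays lay in row 1 and both sham arrays in row 2, so within that slide row and group cannot be told apart for CaCl2 against sham. The number of arrays limits the precision of every value.

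Levels are log2 signals relative to the 75th percentile of the same array, so 0 is a probe as bright as that percentile. Levels of different genes come from different probes and are not compared with each other. Differences between groups are in log2 units, with a standard error (SE) and a p-value adjusted over all 16642 genes, and a gene was called at an adjusted p under 0.05.

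In CaCl2 against sham, 25 of the 30 tested members were called, 13 higher and 12 lower. The 12 include Itgam and Itga6, which other probes on the array put higher. Of all genes tested, 36.4% were called, 17.3% higher and 19.1% lower. The 3 CaCl2 arrays did not overlap the 3 sham arrays for 26 of the 30 members, against 56.6% of all genes. With slide row as a blocking term, 16 of the 30 members and 20.2% of all genes were called. In CaCl2 plus IgG against sham, 20 members were called, 11 higher and 9 lower, against 28.6% of all genes, 14.6% higher and 14% lower. The arrays did not overlap for 24 members, counting Itgae, which was not well above background in either group, against 44.1% of all genes. In CaCl2 plus IgG against CaCl2, 0 of the 30 members and 0% of all genes were called. The median difference of the members in CaCl2 against sham was 0.21, and that of all genes was -0.08. Both comparisons with sham use the same 3 sham arrays, so their values stand side by side below and are not independent of each other.

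**Figure D1:**
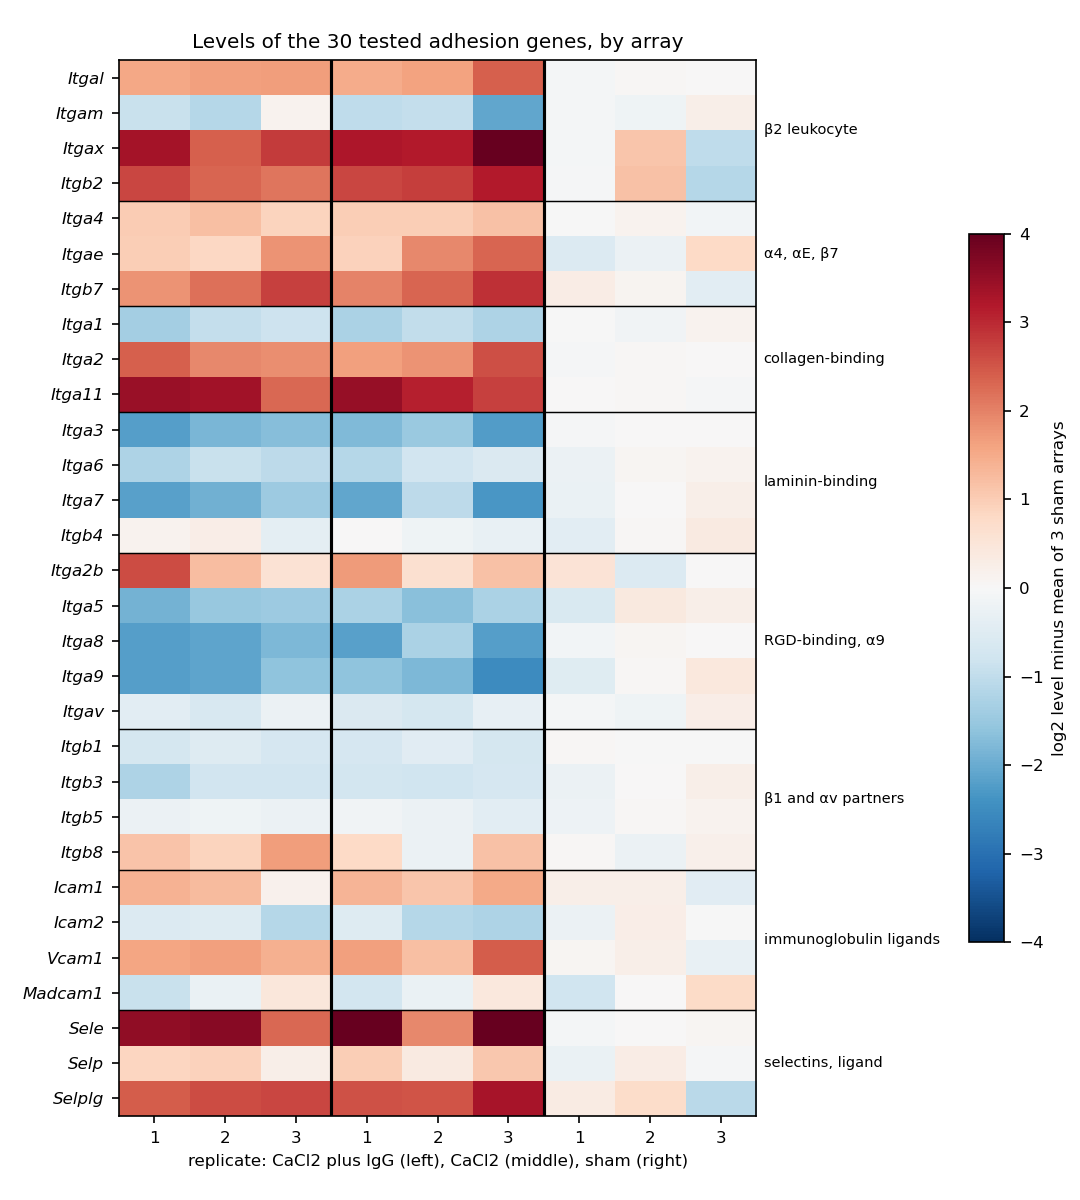
Each cell gives the log2 level of a tested member on an array minus the mean of the 3 sham arrays, with CaCl2 plus IgG on the left, CaCl2 in the middle and sham on the right, and genes ordered by role. Itgax, Itgb2, Itgb7, Itga11, Sele and Selplg are above the sham mean on all 6 CaCl2-treated arrays, and Itga3, Itga7, Itga8 and Itga9 are below it on all 6.

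The beta2 integrins are found on leukocytes, and 3 of the 4 tested rose in CaCl2 against sham. Itgax, the CD11c alpha subunit that marks dendritic cells and many macrophages, had levels of 4.77, 3.85 and 4.24 in CaCl2 plus IgG, 4.69, 4.63 and 5.5 in CaCl2, and 1.36, 2.55 and 0.45 in sham. All 6 treated arrays lay above all 3 sham arrays. Itgax was 11.2-fold higher in CaCl2 than in sham (log2 difference 3.49, SE 0.51, adjusted p = 0.00193) and 7.14-fold higher in CaCl2 plus IgG than in sham (2.84, adjusted p = 0.00492). Itgb2, the beta subunit that all these alpha chains share, had levels of 3.04, 2.71 and 2.51 in CaCl2 plus IgG, 3.05, 3.13 and 3.55 in CaCl2, and 0.34, 1.56 and -0.76 in sham. Its sham arrays were the most scattered of the 3 groups (SD 1.16), and none reached a treated array. Itgb2 was 7.28-fold higher in CaCl2 (2.86, SE 0.50, adjusted p = 0.0039) and 5.19-fold higher in CaCl2 plus IgG (2.38, adjusted p = 0.0095) than in sham.

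Itgal, the alpha subunit that pairs with Itgb2 on lymphocytes to bind Icam1, had levels of -1.32, -1.23 and -1.19 in CaCl2 plus IgG, -1.40, -1.26 and -0.50 in CaCl2, and -2.94, -2.82 and -2.85 in sham. The sham arrays lay within a narrow range below every treated array. Itgal was higher than in sham by 1.82 in CaCl2 (SE 0.22, adjusted p = 0.000977) and by 1.62 in CaCl2 plus IgG (adjusted p = 0.00162).

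Itgam, the CD11b alpha subunit of neutrophils, monocytes and macrophages, was the only tested beta2 subunit with a negative difference, and its value depended on the probe. The array carries 3 probes for Itgam, all on chromosome 7 and well above background on all 9 arrays. The first 30 bases of each are shown because the brightest, which stands for the gene by the rule, opens with an uninterrupted CA repeat of 20 bases, given in capitals. Positions are on mouse build mm9, listed in ascending order by the scanner files, which give no exon or UTR annotation.
The brightest Itgam probe, chr7:135261755-135261814: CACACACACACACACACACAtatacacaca
The second Itgam probe, chr7:135260275-135260334: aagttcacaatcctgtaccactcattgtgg
The third Itgam probe, chr7:135212140-135212199: tgttaaccagacaggtgccctctaccagtg

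On the brightest Itgam probe, levels were 6.54, 6.28 and 7.57 in CaCl2 plus IgG, 6.40, 6.46 and 5.35 in CaCl2, and 7.35, 7.25 and 7.65 in sham. In the fit over genes it fell by 1.35 in CaCl2 (SE 0.39, adjusted p = 0.0292). That call was lost without any 1 sham array (adjusted p from 0.0596 to 0.0897) or without replicate 3 of CaCl2 (-0.99, adjusted p = 0.0864). Its difference in CaCl2 plus IgG against sham was -0.62 (adjusted p = 0.257), or -1.01 without replicate 3 of CaCl2 plus IgG (adjusted p = 0.0444). On the second probe, levels were -0.43, -0.15 and 0.35 in CaCl2 plus IgG, -0.35, -0.14 and 0.05 in CaCl2, and -1.59, -0.92 and -2.13 in sham. Here every treated array lay above every sham array, the opposite of the CaCl2 arrays on the brightest probe. In a fit of all 32168 kept probes taken singly, chosen after the values were seen, the second probe rose by 1.40 in CaCl2 (adjusted p = 0.0147) and by 1.47 in CaCl2 plus IgG (adjusted p = 0.0149). The third probe differed by -0.14 (adjusted p = 0.81) and 0.14 (adjusted p = 0.816) in the same comparisons, and its groups overlapped.

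The array holds 27 probes, the Itgam probe among them, with an uninterrupted CA run of at least 18 bases. In CaCl2 against sham all 27 had negative differences, between -1.67 and -1.08 with a median of -1.36, and 11 of them were called. Of all kept probes, 20% were called lower. The median level of the 26 CA-run probes of other targets was 5.30, 5.10 and 6.81 on replicates 1, 2 and 3 of CaCl2 plus IgG, in CaCl2 it was 5.40, 5.74 and 4.30, and in sham it was 6.29, 6.33 and 6.71. The Itgam probe had its highest level of a CaCl2-treated array on the same replicate 3 of CaCl2 plus IgG and its lowest on the same replicate 3 of CaCl2. Whether its signal comes from Itgam RNA was not tested. With CA- and TG-run probes left out, the second probe stands for the gene, and Itgam rose by 1.40 in CaCl2 (adjusted p = 0.0113) and by 1.47 in CaCl2 plus IgG (adjusted p = 0.0106).

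**Figure D2:**
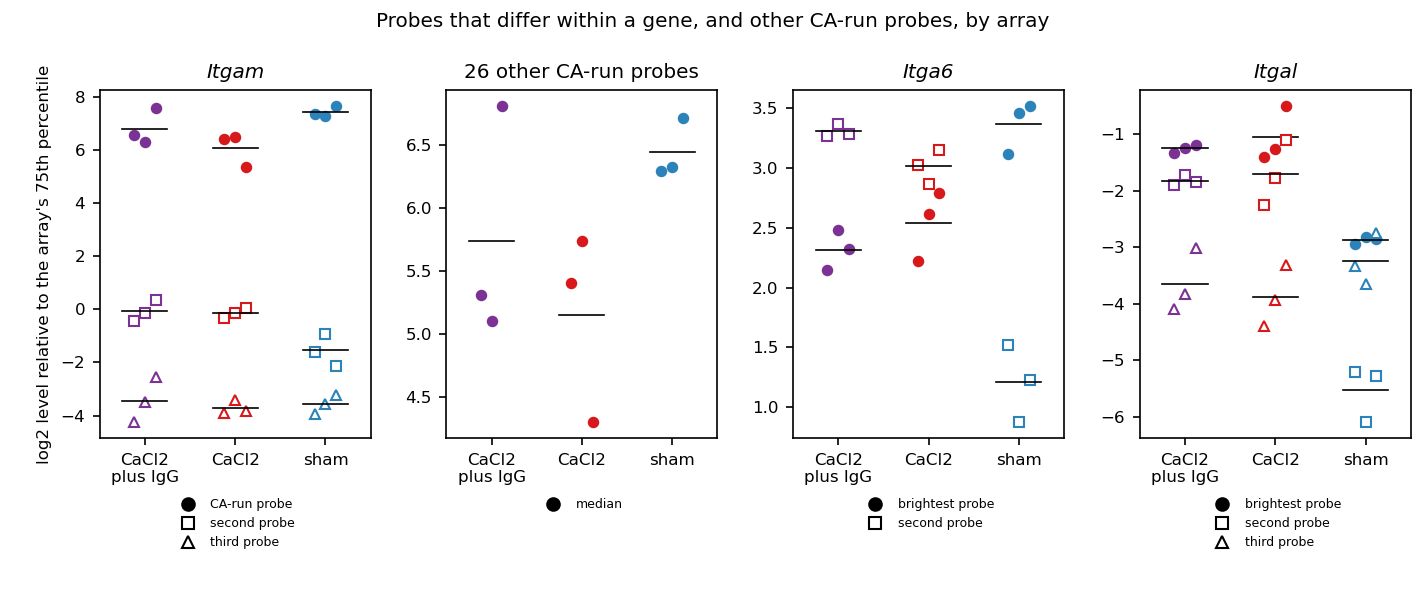
Points are log2 levels of single arrays relative to the array's 75th percentile, with CaCl2 plus IgG on the left, CaCl2 in the middle and sham on the right, and lines are means of 3 arrays. The panels show the 3 Itgam probes, the median of 26 other CA-run probes, the 2 Itga6 probes and the 3 Itgal probes. The Itgam CA-run probe is lower in CaCl2 than in sham and its second probe is higher, as are the second probes of Itga6 and Itgal.

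Itgal also had 3 kept probes that differed, and their first 30 bases show no long repeat.
The brightest Itgal probe, chr7:134477160-134477219: acttgagagccctggctctgaccagcttca
The second Itgal probe, chr7:134477064-134477123: tggggaagagaccaaagatatgggctgtct
The third Itgal probe, chr7:134474711-134474767: gtcccactgctctgtcttttattaacaatg
The second Itgal probe had levels of -1.89, -1.72 and -1.85 in CaCl2 plus IgG, -2.25, -1.78 and -1.09 in CaCl2, and -5.20, -6.09 and -5.27 in sham, where it was not well above background on any array. In the fit of single probes it was at least 6-fold higher in CaCl2 than in sham (adjusted p = 0.000663). Such a bound sets the mean of the bright group against the lowest signal that counts as well above background on each array of the dim group, or against the dim probe itself where that is higher. The third probe differed by -0.63 in CaCl2 against sham (adjusted p = 0.221). The brightest and second Itgal probes lie within the same short stretch of chromosome 7 and were called in the same direction.

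Integrins with alpha4, alphaE or beta7 carry lymphocytes and other leukocytes to Vcam1, Madcam1 and E-cadherin, and all 3 members rose in CaCl2 against sham. Itgb7, the beta subunit that pairs with Itga4 and Itgae, had levels of 1.43, 1.84 and 2.36 in CaCl2 plus IgG, 1.61, 1.97 and 2.56 in CaCl2, and -0.06, -0.26 and -0.78 in sham. Treated and sham arrays were clearly apart. Itgb7 was 5.32-fold higher in CaCl2 (2.41, SE 0.32, adjusted p = 0.0014) and 4.74-fold higher in CaCl2 plus IgG (2.24, adjusted p = 0.00202) than in sham. Itga4, the alpha subunit that binds Vcam1, had levels of 1.63, 1.81 and 1.49 in CaCl2 plus IgG, 1.59, 1.60 and 1.79 in CaCl2, and 0.60, 0.74 and 0.49 in sham, a close grouping within each condition. It was 2.06-fold higher in CaCl2 (1.05, SE 0.14, adjusted p = 0.00133) and 2.05-fold higher in CaCl2 plus IgG (1.03, adjusted p = 0.00148). A dimmer second Itga4 probe differed by 0.06 in CaCl2 against sham (adjusted p = 0.928 among single probes), and the mean of both Itga4 probes differed by 0.55 (adjusted p = 0.115).

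Itgae, which marks T cells and dendritic cells within epithelia, was near the detection limit. It was well above background on 0 of 3 arrays of CaCl2 plus IgG, 3 of 3 of CaCl2 and 0 of 3 of sham, with levels of -4.91, -3.92 and -3.51 in CaCl2 and -6.38, -6.08 and -5.06 in sham. In CaCl2 it was at least 1.13-fold higher than in sham (adjusted p = 0.0213), and with another background correction (normexp) its difference turned to -0.13 (adjusted p = 0.64). The call was also lost without replicate 1 or 2 of sham or replicate 2 or 3 of CaCl2, with adjusted p from 0.0591 to 0.0737. Itgae in CaCl2 plus IgG against sham is plotted with the other members and counted among those whose arrays did not overlap. No difference is read from it there, since Itgae was not well above background on any array of either group.

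Beside these subunits, the macrophage, T and NK cell, neutrophil and dendritic cell marker lists each had more genes called higher than lower in CaCl2 against sham, and the mast cell list had the opposite. Of 11 measured monocyte and macrophage markers, 8 were called higher and 1 lower in CaCl2 against sham, and their summed level, in multiples of the 75th percentile, was 190 to 229 in CaCl2 plus IgG, 210 to 231 in CaCl2 and 34.4 to 83.2 in sham. Of 12 measured T and NK cell markers, 8 were called higher and 1 lower, with sums of 14.9 to 18.6 in CaCl2 plus IgG, 14.8 to 28.4 in CaCl2 and 7.65 to 10.4 in sham. The markers Cd8a, Ncr1 and Klrb1c were not well above background on any sham array. Neutrophil markers without their brightest gene, Csf3r, summed to 12.8 to 17.4 in CaCl2 plus IgG, 9.13 to 13.2 in CaCl2 and 3.55 to 3.86 in sham, and 4 of the 10 measured were called higher. With Csf3r, whose own difference was -0.77 (adjusted p = 0.105), the sum was 140 to 347 in CaCl2 plus IgG, 138 to 162 in CaCl2 and 216 to 280 in sham. Dendritic cell markers without the brightest, Siglech, summed to 5.12 to 8.78 in CaCl2 plus IgG, 6.60 to 13.2 in CaCl2 and 0.896 to 2.04 in sham. With Siglech they summed to 138 to 265 in CaCl2 plus IgG, 125 to 132 in CaCl2 and 190 to 258 in sham, and 3 of 6 were called higher and 1 lower. Of 6 measured mast cell markers, 0 were called higher and 5 lower, with sums of 3.75 to 7.58 in CaCl2 plus IgG, 3.94 to 6.25 in CaCl2 and 9.04 to 19.7 in sham. The part of these cell types in the differences of the leukocyte subunits was not tested.

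**Figure D3:**
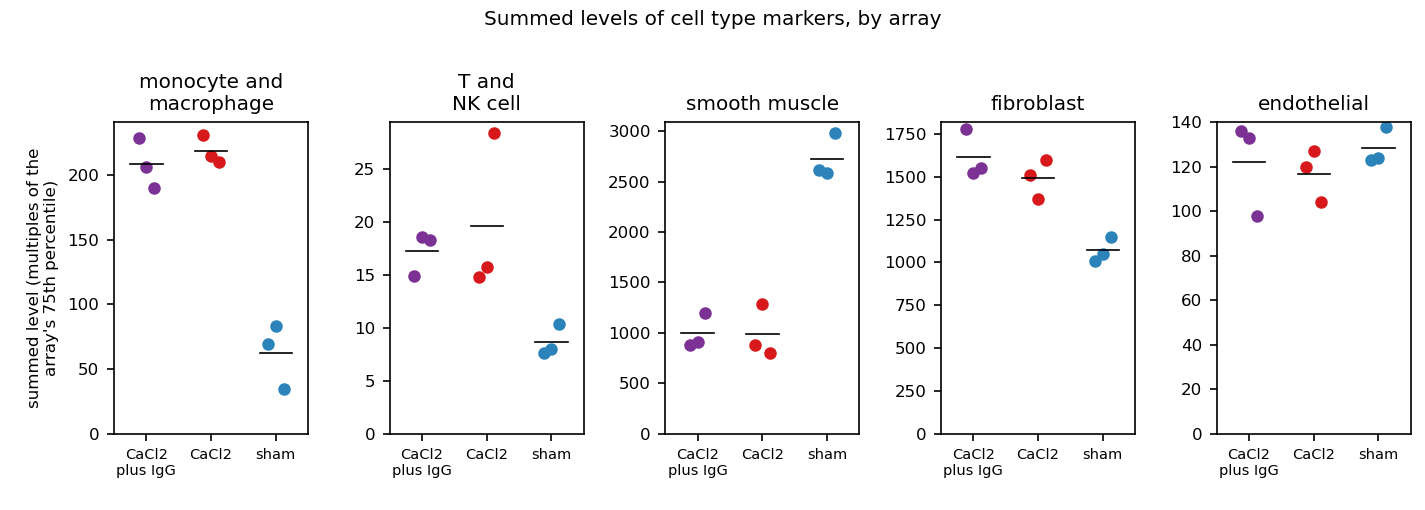
Points are the summed levels of cell type marker lists on single arrays, in multiples of the array's 75th percentile, with CaCl2 plus IgG on the left, CaCl2 in the middle and sham on the right, and lines are means of 3 arrays. Macrophage sums are 210 to 231 in CaCl2 and 34.4 to 83.2 in sham, smooth muscle sums are 803 to 1290 in CaCl2 and 2590 to 2980 in sham, and endothelial sums overlap with Vwf included, at 104 to 127 in CaCl2 and 123 to 138 in sham.

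The collagen-binding alpha subunits moved in opposite directions. Itga11, the receptor for fibrillar collagen on fibroblasts, had levels of 3.80, 3.71 and 2.63 in CaCl2 plus IgG, 3.82, 3.45 and 3.06 in CaCl2, and 0.34, 0.39 and 0.30 in sham. The sham arrays agreed closely (SD 0.04), and replicate 3 of CaCl2 plus IgG was the lowest treated array. Itga11 was 8.58-fold higher in CaCl2 (3.10, SE 0.32, adjusted p = 0.000636) and 8.19-fold higher in CaCl2 plus IgG (3.03, adjusted p = 0.000705) than in sham, in both the smallest adjusted p of the members. Itga1, the receptor for basement membrane collagen on smooth muscle, had levels of 0.42, 0.82 and 0.95 in CaCl2 plus IgG, 0.52, 0.80 and 0.57 in CaCl2, and 1.77, 1.66 and 1.95 in sham. It fell by 1.16 in CaCl2 (SE 0.17, adjusted p = 0.00205) and by 1.06 in CaCl2 plus IgG (adjusted p = 0.00323).

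Itga2, the collagen receptor of platelets and epithelium, was dim, with levels of -4.16, -4.63 and -4.68 in CaCl2 plus IgG, -4.91, -4.75 and -3.97 in CaCl2, and -6.60, -6.52 and -6.52 in sham. It was well above background on 2 of 3 arrays of CaCl2 plus IgG, 3 of 3 of CaCl2 and 0 of 3 of sham. The fitted difference of 2.00 in CaCl2 (adjusted p = 0.0011) gave no lower bound above 1, so no fold is given, and with normexp correction it was -0.17 (adjusted p = 0.44). Fibroblast markers, of which 5 of 8 were called higher in CaCl2, summed to 1520 to 1780 in CaCl2 plus IgG, 1370 to 1600 in CaCl2 and 1010 to 1150 in sham. Their part in the difference of Itga11 was not tested.

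The laminin-binding alpha subunits were lower after CaCl2 on the probes that stand for them. Itga3, which joins beta1 in basement membrane adhesion, had levels of -0.72, -0.34 and -0.22 in CaCl2 plus IgG, -0.29, 0.01 and -0.75 in CaCl2, and 1.45, 1.5 and 1.5 in sham. It fell by 1.83 in CaCl2 (SE 0.21, adjusted p = 0.000906) and by 1.91 in CaCl2 plus IgG (adjusted p = 0.000829), which is 0.282 and 0.266 of the sham level. Itga7, the laminin receptor of differentiated muscle, had levels of 3.30, 3.55 and 4.0 in CaCl2 plus IgG, 3.38, 4.43 and 3.13 in CaCl2, and 5.21, 5.48 and 5.71 in sham. It fell by 1.82 in CaCl2 (SE 0.34, adjusted p = 0.00528) and by 1.85 in CaCl2 plus IgG (adjusted p = 0.0056). Itgb4, the beta subunit of hemidesmosomes in epithelium, overlapped between groups, with differences of -0.16 in CaCl2 (95% interval -0.71 to 0.40, adjusted p = 0.637) and 0.01 in CaCl2 plus IgG (adjusted p = 0.981).

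Itga6, a laminin receptor of endothelium, epithelium and platelets, had 2 probes on chromosome 2 with opposite differences. They are shown because the direction for the gene rests on which is used. The second holds an uninterrupted TTG repeat of 17 bases, in capitals, and its bases 23 to 52 are given, with the first 30 bases for the brightest.
The brightest Itga6 probe, chr2:71690633-71690692: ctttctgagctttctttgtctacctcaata
The second Itga6 probe, chr2:71694756-71694815: TTGTTGTTGTTGTTGTTctgaccttactta
On the brightest probe, which the scanner files assign to an Ensembl transcript, levels were 2.15, 2.48 and 2.33 in CaCl2 plus IgG, 2.22, 2.62 and 2.79 in CaCl2, and 3.12, 3.46 and 3.52 in sham. It fell by 0.82 in CaCl2 (SE 0.19, adjusted p = 0.0122) and by 1.05 in CaCl2 plus IgG (adjusted p = 0.00508). On the second, assigned to a RefSeq transcript, levels were 3.27, 3.37 and 3.29 in CaCl2 plus IgG, 3.02, 2.87 and 3.15 in CaCl2, and 1.52, 0.87 and 1.22 in sham. Among single probes it rose by 1.81 in CaCl2 (adjusted p = 0.000916) and by 2.10 in CaCl2 plus IgG (adjusted p = 0.000687). Neither probe had treated arrays that overlapped sham. With the mean of both probes, Itga6 differed by 0.49 in CaCl2 (adjusted p = 0.0262) and by 0.53 in CaCl2 plus IgG (adjusted p = 0.0236), so no direction is given for the gene as a whole.

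**Figure D4:**
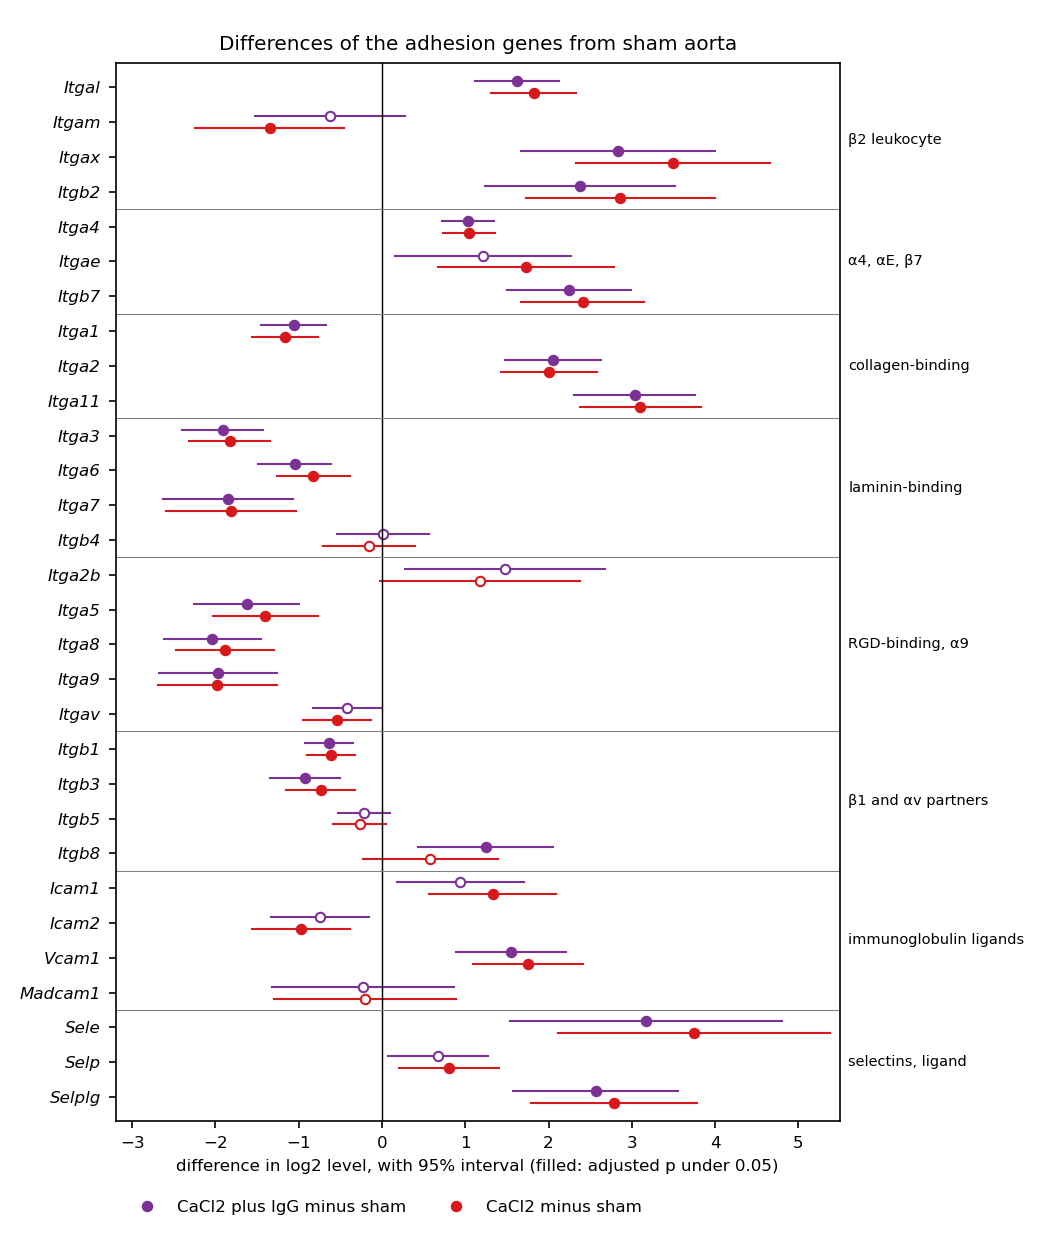
Points are differences in log2 level from sham for the 30 tested members, in CaCl2 plus IgG (purple, above) and CaCl2 (red, below), with bars for the 95% interval and filled points for an adjusted p under 0.05. The leukocyte subunits at the top lie right of 0 except Itgam, whose brightest probe is a CA repeat, and Itga3, Itga7, Itga8 and Itga9 lie near -2. Itgae was not well above background on any array of CaCl2 plus IgG or sham, so its purple point compares signals near the detection limit.

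Among alpha subunits that bind RGD proteins or, for Itga9, tenascin and osteopontin, 4 of 5 fell in CaCl2 against sham. Itga8, an integrin chain of contractile smooth muscle, had levels of 4.85, 4.96 and 5.26 in CaCl2 plus IgG, 4.89, 5.80 and 4.85 in CaCl2, and 6.95, 7.14 and 7.09 in sham. No treated array reached the sham range. Itga8 fell by 1.88 in CaCl2 (SE 0.26, adjusted p = 0.00147) and by 2.04 in CaCl2 plus IgG (adjusted p = 0.00117). Itga9 had levels of 2.61, 2.70 and 3.21 in CaCl2 plus IgG, 3.19, 3.02 and 2.29 in CaCl2, and 4.34, 4.86 and 5.24 in sham. Again no treated array reached the sham range, and Itga9 fell by 1.98 in CaCl2 (SE 0.31, adjusted p = 0.0026) and by 1.97 in CaCl2 plus IgG (adjusted p = 0.00292). Itga5, the main fibronectin receptor chain, had levels of 0.59, 0.96 and 1.04 in CaCl2 plus IgG, 1.21, 0.81 and 1.23 in CaCl2, and 1.87, 2.88 and 2.72 in sham. It fell by 1.40 in CaCl2 (SE 0.27, adjusted p = 0.00635) and by 1.63 in CaCl2 plus IgG (adjusted p = 0.00386).

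Itgav, the alpha chain shared by vitronectin receptors and by activators of latent TGF-beta, differed less. Its levels were 0.87, 0.65 and 1.06 in CaCl2 plus IgG, 0.69, 0.57 and 0.97 in CaCl2, and 1.20, 1.1 and 1.54 in sham, and the groups did not overlap in either comparison with sham. It fell by 0.54 in CaCl2 (SE 0.18, adjusted p = 0.0451), a call that did not hold under 14 of 22 alternative settings, among them leaving out any array except replicate 3 of CaCl2 and replicate 3 of CaCl2 plus IgG, and differed by -0.42 in CaCl2 plus IgG (adjusted p = 0.113). Itga2b, the platelet fibrinogen receptor chain, had levels of -1.97, -3.36 and -4.0 in CaCl2 plus IgG, -2.88, -3.93 and -3.42 in CaCl2, and -4.03, -5.14 and -4.57 in sham. The differences of 1.17 in CaCl2 (adjusted p = 0.11) and 1.47 in CaCl2 plus IgG (adjusted p = 0.0676) did not pass, though without replicate 1 of CaCl2 plus IgG the adjusted p in CaCl2 was 0.043, and without its replicate 3 the difference in CaCl2 plus IgG was 1.92 (adjusted p = 0.0188). Of 8 measured platelet markers, 2 were called higher and 1 lower in CaCl2 against sham. They summed to 29.3 to 47.2 in CaCl2 plus IgG, 23.7 to 31.5 in CaCl2 and 7.01 to 27.8 in sham, with Gp1ba and Gp5 not well above background on any sham array. Without the brightest, Pf4, the sums were 2.35 to 7.1 in CaCl2 plus IgG, 2.08 to 3.12 in CaCl2 and 1.12 to 1.82 in sham, with no overlap between treated and sham arrays. The part of platelets in the differences of Itga2b was not tested.

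Of the beta subunits of wall cells, Itgb1 and Itgb3 fell. Itgb1, the partner of most matrix-binding alpha chains, had levels of 3.26, 3.46 and 3.29 in CaCl2 plus IgG, 3.31, 3.52 and 3.26 in CaCl2, and 4.03, 3.95 and 3.95 in sham. It fell by 0.61 in CaCl2 (SE 0.12, adjusted p = 0.00752) and by 0.64 in CaCl2 plus IgG (adjusted p = 0.00717), and its second probe fell by 1.70 in CaCl2 (adjusted p = 0.00302 among single probes). Itgb3, a partner of Itgav and Itga2b, averaged 2.86 ± 0.28 in CaCl2 plus IgG, 3.05 ± 0.06 in CaCl2 and 3.79 ± 0.24 in sham (SD, n = 3 each). It fell by 0.74 in CaCl2 (SE 0.18, adjusted p = 0.0161) and by 0.93 in CaCl2 plus IgG (adjusted p = 0.00733), and a dimmer second probe differed by 0.16 in CaCl2 (adjusted p = 0.803). The Itgb3 call in CaCl2 was lost without replicate 3 of sham (-0.62, adjusted p = 0.056) and with the mean of both probes (-0.29, adjusted p = 0.421). Itgb5, a partner of Itgav, averaged 5.91 ± 0.04 in CaCl2 plus IgG, 5.86 ± 0.15 in CaCl2 and 6.12 ± 0.17 in sham (SD, n = 3 each), a difference of -0.27 in CaCl2 that did not pass (95% interval -0.58 to 0.05, adjusted p = 0.155). Itgb8, which with Itgav frees TGF-beta from its latent form, was not well above background on any sham array and was at least 1.75-fold higher in CaCl2 plus IgG than in sham (adjusted p = 0.0318). In CaCl2 against sham its difference was 0.58 (adjusted p = 0.227), and with normexp correction its difference in CaCl2 plus IgG was 0.06 (adjusted p = 0.829). The Itgb8 call in CaCl2 plus IgG was also lost without any 1 sham array or replicate 1 or 3 of CaCl2 plus IgG (adjusted p from 0.061 to 0.0978). In CaCl2 against sham, Itgb8 was called higher under 4 of 21 alternative settings. They were median scaling, quantile normalization, the authors' deposited table and the fit without replicate 2 of CaCl2 (0.98, adjusted p = 0.0318). Quantile normalization and the deposited table called 5934 and 5925 genes and the same members, so they are not separate lines of support.

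The lower matrix-binding subunits stood beside lower smooth and skeletal muscle markers and a fall of some fat markers. All 8 smooth muscle markers were called lower in CaCl2 against sham, with a median difference of -2.21, and their summed level was 882 to 1200 in CaCl2 plus IgG, 803 to 1290 in CaCl2 and 2590 to 2980 in sham. Of 4 measured skeletal muscle markers, 3 were called lower, with sums of 7.99 to 8.62 in CaCl2 plus IgG, 5.82 to 14.6 in CaCl2 and 40.9 to 52.8 in sham. Of 5 measured fat markers, 2 were called lower, and the sums of 37.9 to 94.6 in CaCl2 plus IgG lay below those of 106 to 233 in sham, which the sums of 50.6 to 126 in CaCl2 overlapped. The part of muscle and fat content in the differences of these subunits was not tested. The size of the falls also moved with the scale. When each array was scaled to its median in place of its 75th percentile, the median difference of all genes in CaCl2 against sham was 0.39 in place of -0.08, and 77% in place of 47.6% of the called genes were higher. On that scale 15 members were called higher and 6 lower, against 28.7% of all genes called. Itgb1 differed by -0.14, Itgb3 by -0.26, Itgav by -0.07, Itga6 by -0.35 and Icam2 by -0.50, none of them called. For CaCl2 plus IgG against sham the share of higher calls was 71.7% in place of 51%. There 12 members were called higher and 6 lower, against 18.1% of all genes called. Itga1, Itga3, Itga5, Itga7, Itga8 and Itga9 fell on both scales and in both comparisons.

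The immunoglobulin ligands on endothelium differed among themselves. Vcam1, the ligand of alpha4 integrins, had levels of 5.38, 5.45 and 5.23 in CaCl2 plus IgG, 5.44, 5.01 and 6.21 in CaCl2, and 3.88, 4.02 and 3.49 in sham. All treated arrays lay above sham. Vcam1 was 3.38-fold higher in CaCl2 (1.75, SE 0.29, adjusted p = 0.0031) and 2.94-fold higher in CaCl2 plus IgG (1.55, adjusted p = 0.00575), and its second probe was called in the same direction. Icam1, a ligand of Itgal and Itgam, had levels of -0.41, -0.55 and -1.64 in CaCl2 plus IgG, -0.44, -0.70 and -0.30 in CaCl2, and -1.59, -1.59 and -2.25 in sham. Replicate 3 of CaCl2 plus IgG lay within the sham range and the other treated arrays lay above it. Icam1 was 2.51-fold higher in CaCl2 (1.33, SE 0.33, adjusted p = 0.0172) and differed by 0.94 in CaCl2 plus IgG (adjusted p = 0.0668). Without replicate 3 of CaCl2 plus IgG that difference was 1.33 (adjusted p = 0.00426). The call in CaCl2 was lost without replicate 3 of sham (1.11, adjusted p = 0.0604), without replicate 1 of CaCl2 (1.31, adjusted p = 0.0524) and without replicate 3 of CaCl2 (1.24, adjusted p = 0.0584).

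Icam2, the ligand that resting endothelium carries, had levels of 4.39, 4.44 and 3.80 in CaCl2 plus IgG, 4.43, 3.80 and 3.70 in CaCl2, and 4.71, 5.21 and 4.93 in sham. It fell by 0.97 in CaCl2 (SE 0.26, adjusted p = 0.0202), and differed by -0.74 in CaCl2 plus IgG (adjusted p = 0.0609). The Icam2 call in CaCl2 was lost under 6 of 22 alternative settings, among them without replicate 2 or 3 of sham or replicate 2 or 3 of CaCl2 (adjusted p from 0.0552 to 0.0706). Madcam1, the mucosal ligand of Itga4 with Itgb7, differed by -0.20 in CaCl2 (adjusted p = 0.765) and -0.23 in CaCl2 plus IgG (adjusted p = 0.736), with overlapping groups. Of 11 endothelial markers, 2 were called higher and 2 lower in CaCl2 against sham, and their summed level was 98 to 136 in CaCl2 plus IgG, 104 to 127 in CaCl2 and 123 to 138 in sham. Without the brightest, Vwf, the endothelial sum was 52.6 to 90.8 in CaCl2 plus IgG, 65.5 to 83.6 in CaCl2 and 53.1 to 59.1 in sham, so every CaCl2 array lay above sham while CaCl2 plus IgG overlapped it. The part of endothelial content in the differences of these ligands was not tested.

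The selectins and their ligand were all called higher in CaCl2 against sham. Sele, which endothelium makes on activation, was not well above background on any sham array and was so on all 6 treated arrays. Its levels were -2.89, -2.81 and -4.14 in CaCl2 plus IgG, -1.93, -4.54 and -1.63 in CaCl2, and -6.52, -6.44 and -6.39 in sham. The treated arrays were widely scattered (SD 1.60 in CaCl2). Sele was at least 3.02-fold higher in CaCl2 (adjusted p = 0.00557) and at least 2.02-fold higher in CaCl2 plus IgG (adjusted p = 0.0127), and with normexp correction neither call held (0.65, adjusted p = 0.119 and 0.42, adjusted p = 0.325). Selp, which endothelium and platelets store in granules, had levels of 0.66, 0.71 and 0.04 in CaCl2 plus IgG, 0.77, 0.16 and 0.86 in CaCl2, and -0.46, 0.10 and -0.24 in sham. It rose by 0.80 in CaCl2 (SE 0.26, adjusted p = 0.0429), and differed by 0.67 in CaCl2 plus IgG (adjusted p = 0.087), or 0.89 without replicate 3 of CaCl2 plus IgG (adjusted p = 0.0255). The Selp call in CaCl2 was lost under 8 of 22 alternative settings, among them without replicate 1 or 3 of sham, of CaCl2, or without replicate 1 or 2 of CaCl2 plus IgG (adjusted p from 0.0522 to 0.132). Selplg, the leukocyte ligand of the selectins, had levels of 2.24, 2.45 and 2.49 in CaCl2 plus IgG, 2.37, 2.34 and 3.13 in CaCl2, and 0.16, 0.56 and -1.24 in sham. It was 6.9-fold higher in CaCl2 (2.79, SE 0.43, adjusted p = 0.00253) and 5.92-fold higher in CaCl2 plus IgG (2.56, adjusted p = 0.00388), and both of its probes were called.

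Genes that make or carry the glycans bound by selectins, listed apart from the members, had 16 measured genes, of which 10 were called higher and 1 lower in CaCl2 against sham, with a median difference of 0.81. The fucosyltransferases Fut7 and Fut4 build the selectin-binding glycan in leukocytes. Fut7 rose by 2.09 (SE 0.20, adjusted p = 0.000482), and Fut4 was not well above background on any sham array and was at least 4.01-fold higher (adjusted p = 0.000918). Cd44, a hyaluronan receptor that can carry the glycan, rose by 1.77 (adjusted p = 0.00171), and the sialyltransferase St3gal4 rose by 2.14 (adjusted p = 0.00388). The counts were the same in CaCl2 plus IgG against sham.

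Of 24 measured genes that activate integrins or tie them to actin, 10 were called higher and 7 lower in CaCl2 against sham. Parvg, the parvin of blood cells, rose by 2.88 (SE 0.24, adjusted p = 0.000341). Fyb, an adaptor of T cells and platelets in integrin activation, rose by 2.30 (adjusted p = 0.000523), and Apbb1ip, which links Rap1 to talin, rose by 1.72 (adjusted p = 0.00109). Vcl, the vinculin of focal adhesions, fell by 1.26 (SE 0.14, adjusted p = 0.000817). Against the same sham arrays, 9 were called higher and 7 lower in CaCl2 plus IgG.

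Of 16 other genes of leukocyte adhesion and passage, 5 were called higher and 4 lower in CaCl2 against sham, and the counts were the same in CaCl2 plus IgG against sham. Itga10, the collagen-binding chain of cartilage, rose by 0.89 (SE 0.17, adjusted p = 0.00539). Aoc3, an amine oxidase of smooth muscle, fat and endothelium, fell by 1.37 (adjusted p = 0.00216), and Cd99l2 fell by 0.65 (adjusted p = 0.00747).

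Of 20 measured matrix and soluble ligands of integrins, 6 were called higher and 6 lower in CaCl2 against sham, with a median difference of -0.04, and 6 higher and 7 lower in CaCl2 plus IgG against sham. Spp1, osteopontin, which Itga9 and Itgav bind, had levels of 5.86, 5.25 and 5.5 in CaCl2 plus IgG, 5.49, 4.80 and 6.25 in CaCl2, and -1.04, -0.28 and -4.21 in sham. Its difference in CaCl2 was 7.35 (SE 0.90, adjusted p = 0.000977), and it was well above background on 2 of 3 sham arrays. Edil3, an RGD ligand of Itgav, was not well above background on any sham array and was at least 7.53-fold higher in CaCl2 (adjusted p = 0.00098). The laminin chain Lamb1 rose by 1.94 (adjusted p = 0.0022), and Vwf, the endothelial and platelet ligand of Itga2b, fell by 0.80 (adjusted p = 0.00394).

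The question behind CaCl2 plus IgG against CaCl2 is whether added immunoglobulin altered these genes in injured aortas without B cells. No member was called by limma and none had an unadjusted p under 0.05, where 251 of 16642 genes did. Differences ran from -0.66 for Itgax to 0.72 for Itgam, with a median of -0.08, against -0.01 for all genes. They were below 0 for 20 members and above 0 for 10, where 8862 of all genes were below 0 and 7780 above. Itgb2 was the only member whose 3 CaCl2 plus IgG arrays (3.04, 2.71 and 2.51) lay entirely below its 3 CaCl2 arrays (3.05, 3.13 and 3.55), a difference of -0.49 (95% interval -1.62 to 0.65, adjusted p = 1), where 2.39% of all genes were lower without overlap and 5.04% were so in either direction. For 20 of the 30 members the 95% interval lay inside a 2-fold difference either way. For Itgam, Itgax, Itgb2, Itgae, Itga2b, Itgb8, Icam1, Madcam1, Sele and Selplg it reached past a 2-fold difference on at least one side, so a difference of that size was not excluded there.

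Itgb1 differed by -0.03 between CaCl2 plus IgG and CaCl2 (95% interval -0.31 to 0.26), Itga4 by -0.01 (-0.33 to 0.31), Itga11 by -0.07 (-0.79 to 0.66), Vcam1 by -0.20 (-0.86 to 0.46) and Sele by -0.58 (-2.21 to 1.05). Leaving out replicate 3 of CaCl2 plus IgG, the array that stood apart, again gave 0 called members. The difference of Itgam was then 0.34, that of Icam1 0.00 (95% interval -0.54 to 0.54), that of Itga11 0.31 and that of Itga2b 0.75.

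**Figure D5:**
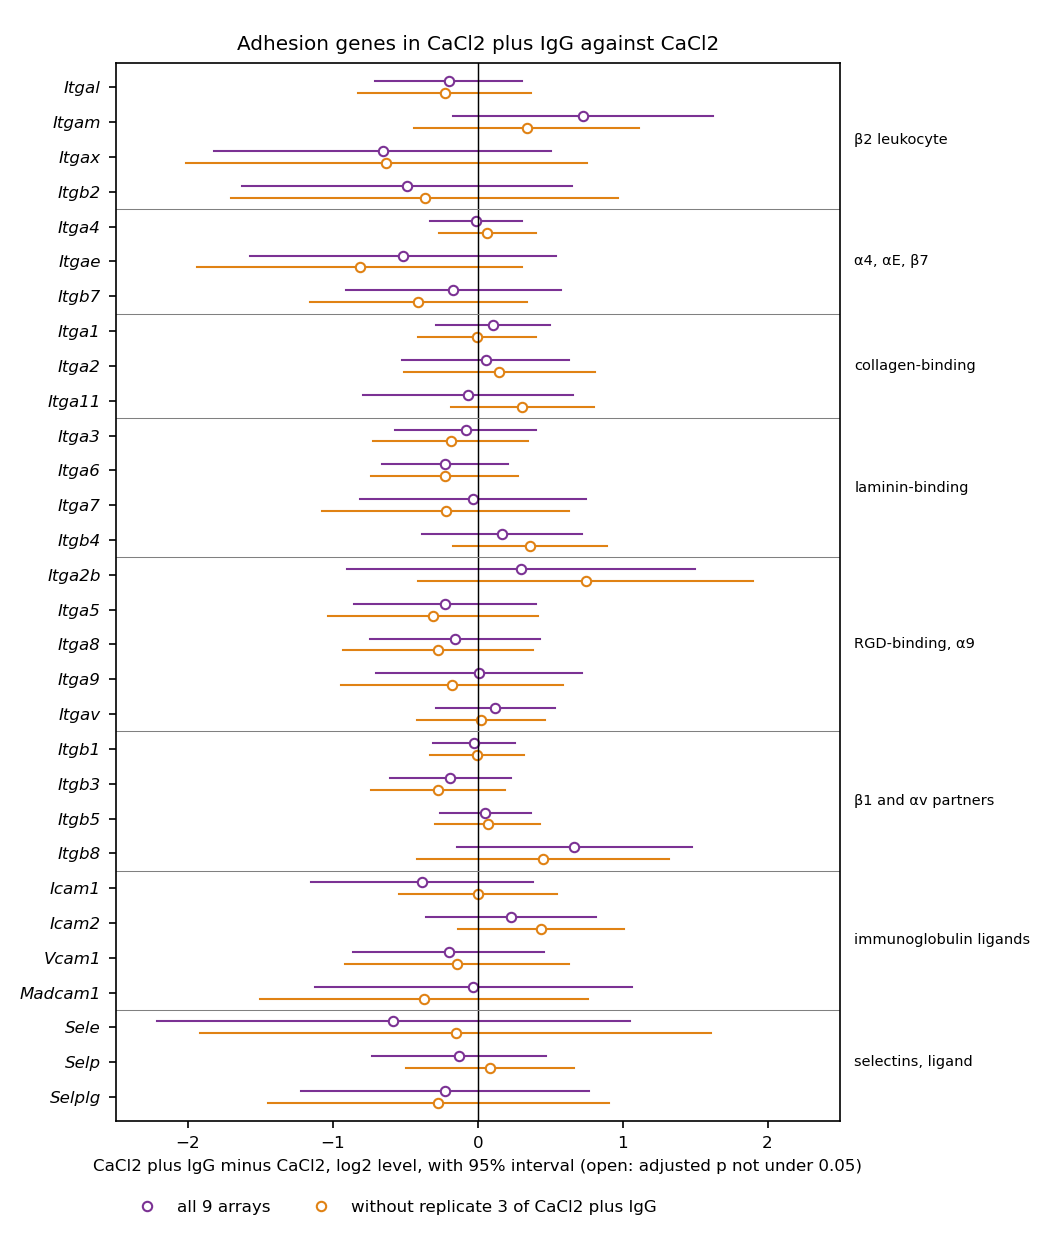
Points are differences in log2 level between CaCl2 plus IgG and CaCl2 for the 30 tested members, with all 9 arrays (purple, above) and without replicate 3 of CaCl2 plus IgG (orange, below), and bars are 95% intervals. Every interval with all arrays crosses 0, and differences run from -0.66 to 0.72.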

How the data were processed

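RNA from the abdominal aorta of 9 uMT samples was measured on 1-colour Agilent mouse 8x60K arrays. Per the file headers, the authors' deposited intensity values come from Feature Extraction 10.7.1.1 and are its gProcessedSignal, which subtracts background from each spot. The submitters' processing notes name version 9.5.1.1. The authors' deposited intensity table of the same arrays, put on the log2 scale here, served only as an alternative. Its counts of called genes were close to those with quantile normalization.

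Each array's log2 intensity was set against its 75th percentile, outlier spots were left out, and repeated spots of a probe gave a mean. The filter kept a probe that passed the scanner's background test on every array of some group, and the brightest kept probe stood for a gene. Of the probes, 27235 were named by accession through RefSeq's gene table, 4144 by symbol or unique synonym and 1819 by the file alone, and 22483 had no symbol. Groups were compared over all 9 arrays by linear models without covariates and moderated variances (limma 3.58.1, R 4.3.3), with Benjamini-Hochberg adjustment over 16642 genes and a threshold of 0.05. The fit was tested on simulated data. The number of arrays limits the precision.

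The members, lists and tests were chosen with earlier results of these data known. All members are named. Of 4 other adhesion lists the up to 4 called genes with the smallest p in CaCl2 against sham are named, plus Itga10, and a gene that the rule also names is not reported here. Marker lists are given by counts and sums. The fit of single probes, the setting without repeat probes and the sums without the brightest marker were added after the values were seen. Probe sequences and mm9 positions come from the scanner files. Samples sharing a replicate number did not deviate together in every pair, so the numbers were not used as pairs.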

Additional observations from a re-analysis of the deposited data

How the results depend on the processing

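In CaCl2 against sham, 13 of the 25 called members were called in the same direction under every alternative setting of the gene-level fit, and the same 13 of the 20 called in CaCl2 plus IgG against sham: Itga1, Itga11, Itga3, Itga5, Itga7, Itga8, Itga9, Itgal, Itgax, Itgb2, Itgb7, Selplg and Vcam1. With slide row as a blocking term, 16 members and 3364 genes were called in CaCl2 against sham, and Icam1, Icam2, Itga6, Itgae, Itgam, Itgav, Itgb1, Itgb3 and Selp were not. The cause was not tested. Leaving out single arrays gave 19 to 25 members and 3913 to 7472 genes in CaCl2 against sham, 0 members and 0 to 2 genes in CaCl2 plus IgG against CaCl2, and 19 to 23 members and 2991 to 6757 genes in CaCl2 plus IgG against sham. The lowest of these were without replicate 3 of sham (3913), which also leaves only the arrays of slide 1, and without replicate 2 of CaCl2 plus IgG (2991). In CaCl2 plus IgG against sham, median scaling called 3012 genes and array weights 7933. With the replicate number as a block, 24, 0 and 23 members were called in the 3 comparisons in the order above, against 34.9%, 0% and 28% of all genes. Itgam and Selp were then lost and Itga2b gained in CaCl2 against sham. Directions turned for Itga2 with normexp correction (-0.17 in CaCl2 against sham, -0.012 in CaCl2 plus IgG against sham), for Itgae with normexp (-0.13 in CaCl2 against sham), for Itga6 with the mean of its probes (0.49 and 0.53 in the same order) and for Itgam without CA- and TG-run probes (1.40 and 1.47). The calls of Itga2, Itgae, Itgb8 and Sele were lost with normexp. In CaCl2 plus IgG against CaCl2, no member was called under any alternative, and 251 genes had an unadjusted p under 0.05. Uncalled differences changed sign in 59 of 654 cases there.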
